A study of Mus musculus with 13 samples.

Results

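The imprinted growth genes Cdkn1c, Phlda2, Grb10, Igf2, Dlk1, Peg3, Mest and Ndn were followed across a microarray series on the conversion of mouse fibroblasts into induced cardiomyocytes (iCMs). They were chosen by name, with earlier results of these data known, so shares set beside all genes are descriptions. Each of the 8 had exactly 1 probe, among 16390 genes named on the array. An imprinted gene is transcribed mainly from the copy inherited from 1 parent. Genes active on the maternal copy tend to restrain fetal growth, and genes active on the paternal copy tend to promote it. Many of them are strongly expressed in fetal mesenchyme and muscle, including the developing heart, and are turned down after birth. The arrays read the summed transcript of both copies and say nothing of which copy was active.

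The series held 13 arrays in 13 groups, with 1 array per group. 6 arrays came from iCMs made by transduction with GMT, the factor set of Gata4, Mef2c and Tbx5, and sorted as cells positive for an αMHC-GFP reporter at 2 or 4 weeks. These were grown in serum-containing medium (FBS), in serum-free medium (SF), or in medium with the growth factors FGF2, FGF10 and VEGF (FFV). Both GMTMM arrays came from iCMs made from TTFs in FFV or FBS, and the single MT array came from iCMs in FFV, with no time or sort in the labels of these 3 arrays. The others were mouse embryonic fibroblasts (MEFs), TTFs, and hearts labelled E12 and P1. The labels do not state strain, sex or the cells from which GMT and MT iCMs were made. The labels mention no pooling, and no replicate of any group was analysed here.

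Levels are log2 of the background-corrected, quantile-normalised spot intensity, and a step of 1 is a doubling of the measured signal. The lowest level on the arrays was 5.65, and differences near it are compressed. A spot was well above background when it exceeded the mean of the blank spots by 2 SD, which 78.4% to 91.5% of probes did per array. Identifiers placed the arrays in 3 series. The E12 heart shared one with the GMT iCMs, the P1 heart shared one with the MEFs, and the third held TTFs, MT iCMs and GMTMM iCMs. Differences between arrays of different series cannot be told apart from a series effect. The mean level of 14 cardiomyocyte markers was 9.96 to 10.74 in GMT iCMs, 12.21 and 12.82 in the hearts, 6.43 in MEFs and 6.32 in TTFs. It was 8.0 in MT iCMs and 6.72 and 7.20 in GMTMM iCMs, close to the fibroblasts. All 14 of these markers were well above background in MT iCMs, against 10 and 13 in GMTMM iCMs in FBS and FFV. The mean level of 12 fibroblast markers was close to equal in MEFs (12.01) and TTFs, against 8.48 to 9.65 in GMT iCMs.

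7 of the 8 genes had an entry in RefSeq's promoter windows (GRCm38.p6, 250 bases before to 50 after an annotated start), with 13 windows in all. Cdkn1c was not among them. The windows of Phlda2 and of the first upstream and first downstream annotated start of Mest are shown. In the fit to the GMT iCMs alone, Phlda2 and Mest differed most between serum and serum-free culture. This did not hold in the GMTMM pair. Capitals mark CpG dinucleotides, the sites of DNA methylation, which was not measured in these windows. The sequences read 5′ to 3′ on the strand of the gene, which is the minus strand for Phlda2 (chr7:143502475-143502774) and the plus strand for Mest (chr6:30733256-30733555 and chr6:30737800-30738099).
Phlda2: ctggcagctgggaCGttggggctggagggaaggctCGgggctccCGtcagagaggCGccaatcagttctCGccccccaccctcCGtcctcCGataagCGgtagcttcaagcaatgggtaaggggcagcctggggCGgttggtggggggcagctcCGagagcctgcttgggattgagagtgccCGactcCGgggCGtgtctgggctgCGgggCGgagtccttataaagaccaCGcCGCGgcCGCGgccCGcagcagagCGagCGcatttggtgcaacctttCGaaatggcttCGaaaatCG
Mest, upstream start: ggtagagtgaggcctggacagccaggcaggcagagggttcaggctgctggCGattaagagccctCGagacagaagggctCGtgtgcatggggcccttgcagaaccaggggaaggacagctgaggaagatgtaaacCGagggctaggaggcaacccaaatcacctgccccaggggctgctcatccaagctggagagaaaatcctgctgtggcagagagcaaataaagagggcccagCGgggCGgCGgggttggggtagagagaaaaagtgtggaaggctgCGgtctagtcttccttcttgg
Mest, downstream start: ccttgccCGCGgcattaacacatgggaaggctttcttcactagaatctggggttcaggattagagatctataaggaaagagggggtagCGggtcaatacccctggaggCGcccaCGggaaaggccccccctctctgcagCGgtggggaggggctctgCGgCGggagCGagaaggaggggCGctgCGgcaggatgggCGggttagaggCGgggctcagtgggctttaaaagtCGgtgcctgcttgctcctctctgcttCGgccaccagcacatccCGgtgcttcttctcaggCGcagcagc
The Phlda2 window held 26 CpGs, more than 83.1% of the 32851 windows in the table. The upstream Mest window held 8 and the downstream one 17, against a median of 7 over the table. Over the members the count ran from 2 at one Igf2 start to 45 at one Grb10 start. TATAAA, searched on both strands, was found in the Phlda2 window alone among the 13, and in 13.6% of the table. The CArG box was found in 1 Igf2 window and in 1.63% of the table, and TGANTCA in none of the 13 and in 7.81% of the table. The matches lay in different windows and did not overlap. No methylation or binding was measured, so these are descriptions of sequence.

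Cdkn1c, a cyclin-dependent kinase inhibitor expressed from the maternal copy, spanned the widest range of the 8 genes. Its level was 13.24 in the E12 heart, 11.69 in MEFs, 9.76 in TTFs and 9.18 in the P1 heart. GMTMM iCMs followed at 8.88 in FBS and 8.07 in FFV, and MT iCMs at 8.09. The 6 GMT iCM arrays were the 6 lowest, from 6.50 to 7.40. The E12 heart stood 107-fold above the lowest GMT array, and the GMT arrays did not overlap with any other group. The mean of the GMT arrays lay 28.0-fold below MEFs, 82.0-fold below the E12 heart and 4.91-fold below the P1 heart. The share of all genes with the GMT arrays lowest was not counted. All groups but the E12 heart came from other array series than the GMT arrays. Differences from those groups cannot be told apart from a series effect.

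Igf2, the paternally expressed fetal growth factor that signals through the IGF and insulin receptors, gave a similar order. Its level was 13.62 in the E12 heart, 13.06 in MEFs and 12.44 in the P1 heart. The GMTMM iCMs followed at 11.10 in FBS and 10.34 in FFV. TTFs at 9.39 and MT iCMs at 8.57 lay inside the range of the GMT iCMs, which ran from 7.76 to 9.89. The mean of the GMT iCMs was 18.1-fold below MEFs, 26.7-fold below the E12 heart and 11.8-fold below the P1 heart.

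Dlk1, a paternally expressed membrane protein related to the Notch ligands and known as a mark of preadipocytes, was highest in MEFs at 9.83. GMTMM iCMs had 8.52 in FFV and 7.59 in FBS, TTFs 7.82, the E12 heart 7.43 and the P1 heart 7.15. In GMT iCMs it lay between 5.72 and 6.27, with both SF arrays not well above background and the other 4 at 5.88 to 6.27. MT iCMs had 5.84. The GMT mean, with 4 of the 6 arrays well above background, was 15.2-fold below MEFs, and the MT iCMs were 15.9-fold below them. Both values rest on levels near the lowest on the arrays, where differences are compressed.

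Peg3, a paternally expressed zinc finger protein, had its highest levels in the E12 heart (9.45), MEFs (8.23) and the P1 heart (7.82). MT iCMs stood at 7.52. GMT iCMs ran from 6.34 to 6.85, beside TTFs at 6.26 and GMTMM iCMs at 6.2 and 6.36. The GMT mean was 3.10-fold below MEFs and 7.23-fold below the E12 heart.

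Mest, a paternally expressed member of the hydrolase family, had levels of 11.50 in the E12 heart, 10.78 in MEFs and 10.51 in the P1 heart. Here the GMT iCMs split by medium, with 9.95 and 10.54 in FBS, 9.08 and 8.54 in FFV, and 8.37 and 8.35 in SF, at 2 and 4 weeks respectively. TTFs had 7.63, MT iCMs 8.22, and GMTMM iCMs 8.35 in FFV and 7.11 in FBS. The GMT FBS array at 4 weeks therefore lay at the level of the P1 heart. The GMT SF arrays lay close to GMTMM iCMs in FFV and to MT iCMs, and the GMT FFV arrays lay above these. All GMT arrays lay above GMTMM iCMs in FBS.

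Ndn, the paternally expressed gene of necdin, a MAGE family protein that restrains the cell cycle, was the only paternally expressed member not lower in GMT iCMs than in MEFs. Its level ran from 9.10 to 9.77 in GMT iCMs, against 8.91 in MEFs, 9.39 in TTFs and 9.42 in MT iCMs. The P1 heart was lowest at 7.97, and the E12 heart had 9.18. The GMTMM iCMs held the extremes outside the hearts, with 9.84 in FFV and 8.57 in FBS.

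Phlda2, a maternally expressed protein with a pleckstrin homology domain that restrains growth of the placenta, was high on a pair of arrays alone. GMT iCMs in FBS had 8.33 at 2 weeks and 9.46 at 4 weeks. The other 11 arrays ran from 5.73 to 6.25, close to the lowest level on the arrays, and MEFs were not well above background. In the authors' deposited table, scaled so that the median probe has 25, the same arrays had 179 and 465 and the others 0.708 to 17.6. Averaged over all 6 GMT arrays, the signal was at least 2.44-fold above MEFs, a mean carried by the FBS arrays. Grb10, a maternally expressed adaptor in most tissues that inhibits the insulin and IGF receptors, was dim throughout. It ran from 5.78 to 6.36 over the 13 arrays, with the E12 heart highest, so that its differences rest on compressed values.

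**Figure D1:**
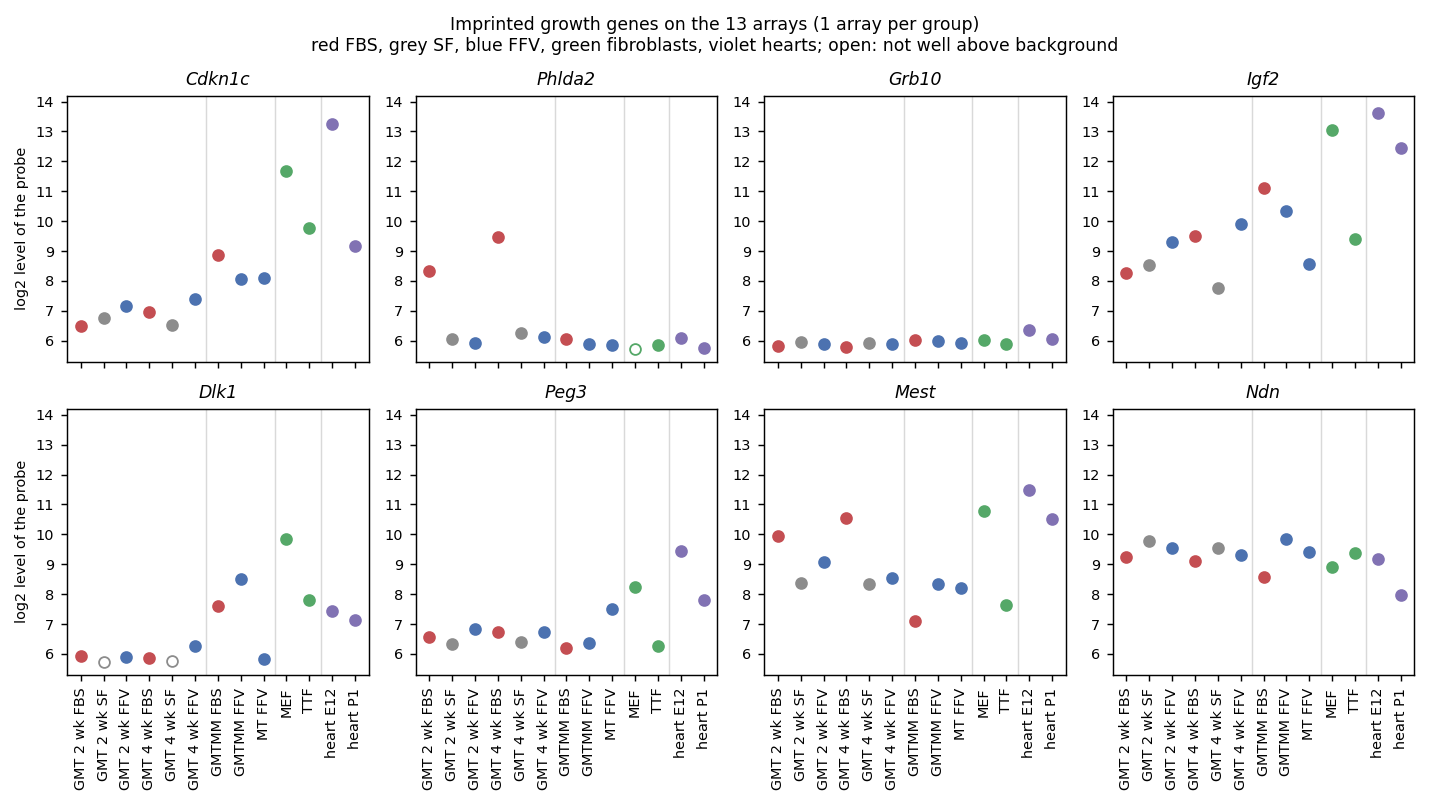
Log2 level of the single probe of each gene (vertical axis) on the 13 arrays (horizontal axis), each point 1 array, coloured by medium or source; open points were not well above background. Cdkn1c is lowest on the 6 GMT arrays (6.50 to 7.40), and Phlda2 stands out on the GMT FBS arrays alone (8.33 and 9.46).

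Against MEFs, 4 of the 8 genes were at least 2-fold lower on each of the 6 GMT arrays, namely Cdkn1c, Igf2, Dlk1 and Peg3. Over all genes 2.92% were lower by this rule. None of the 8 was at least 2-fold higher on each GMT array, against 1.96% over all genes, while Ndn and Phlda2 were higher on each of the 6 arrays, Ndn by less than 2-fold on all of them and Phlda2 by less on 4. The median log2 difference of the 8 genes was -1.64, and that of all genes was 0.01. Mest had a mean 3.12-fold lower but did not reach 2-fold on each array, since both FBS arrays were closer to MEFs. With 1 array per group these differences have no replicate check, and fewer cells of a type cannot be told apart from less RNA per cell. The macrophage markers went with the same contrast, with a mean level of 9.71 over 12 markers in MEFs and 6.14 to 7.64 in GMT iCMs. The dividing-cell markers did so as well, with 8.76 over 9 markers in MEFs and 6.96 to 7.74 in GMT iCMs. By the 2-fold rule 11 of 12 fibroblast markers were lower on each GMT array, with a median of -3.24. Of the cardiomyocyte markers 10 of 14 were higher, with a median of 4.18. The part of these markers in the result was not tested.

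The same 4 genes were at least 2-fold below the E12 heart on each GMT array, against 3.68% of all genes; this comparison lies within 1 array series. With median scaling 3 of the 8 passed, as with the local surround subtracted. Of all genes 2-fold apart here, 46.4% were higher in GMT iCMs, against 66.2% with median scaling and 57.2% in the deposited table. Markers of other kinds moved with the same contrast, since 8 of 9 dividing-cell, 7 of 10 endothelial and 6 of 14 cardiomyocyte markers were lower by the same rule, with medians of -2.63, -1.70 and -1.39. Against the P1 heart 5 of 9 dividing-cell, 7 of 10 endothelial and 9 of 14 cardiomyocyte markers were lower (medians of -1.29, -2.83 and -2.31). Of 12 fibroblast markers 4 were lower and 1 higher against the E12 heart (median of -0.59). Against the P1 heart 5 of them were lower and 1 higher (median of -1.5). The part of all these markers in the members' differences was not tested. Cdkn1c had the largest difference of the 8, and Mest was 5.14-fold lower on average without reaching 2-fold on each array. Against the P1 heart Cdkn1c and Igf2 were at least 2-fold lower on each GMT array, against 4.08% of all genes. Dlk1, Peg3 and Grb10 were also lower on each of the 6, but not by 2-fold on each. Ndn was at least 2-fold higher on each, 2.73-fold on average, against 2.94% of all genes. Of all genes 2-fold apart here, 41.9% were higher in GMT iCMs, against 71% with median scaling and 61.6% in the deposited table. With a floor on blank-subtracted signal or with the deposited table, 6 of the 8 passed in either direction in place of 3, and 1 passed with the local surround subtracted.

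**Figure D2:**
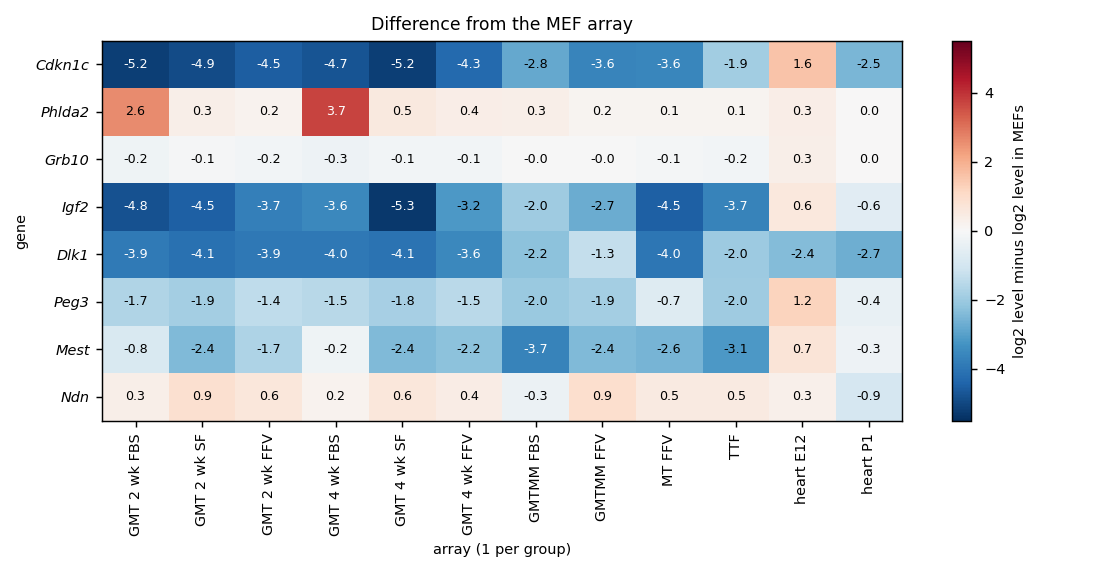
Log2 level of each gene minus its log2 level in MEFs, for the 12 other arrays (columns, 1 array per group); blue is lower than in MEFs and red higher, with the difference printed in each cell. Cdkn1c, Igf2 and Dlk1 are blue across the GMT iCMs, and Phlda2 is darkest red on the GMT FBS arrays.

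From the E12 to the P1 heart, Cdkn1c, Igf2, Peg3 and Ndn were lower by 16.7-fold, 2.27-fold, 3.10-fold and 2.32-fold, against 4.29% of all genes at least 2-fold lower. Mest differed by 1.98-fold, just inside the limit, and all 8 genes had the lower value at P1. The median of the 8 was -1.08, and that of all genes was 0.00. The mean level of the dividing-cell markers was 9.85 at E12 and 8.90 at P1, and their part was not tested. The hearts came from different array series.
Against MEFs, the E12 heart was at least 2-fold higher for Cdkn1c (2.93-fold) and Peg3 (2.33-fold), against 5.67% of all genes, and lower for Dlk1 (5.27-fold), against 6.41%. Of all genes 2-fold apart here, 46.9% were higher in the E12 heart, against 29.9% with median scaling. The P1 heart, of the same array series as the MEFs, was at least 2-fold lower for Cdkn1c (5.71-fold) and Dlk1 (6.41-fold), against 6.75% of all genes. Cdkn1c thus lay above MEFs in the E12 heart and below them in the P1 heart.

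Both kinds of fibroblast differed from each other. TTFs were at least 2-fold below MEFs for 5 of the 8 genes, against 2.8% of all genes, with Igf2 12.7-fold, Mest 8.87-fold, Dlk1 4.03-fold, Peg3 3.93-fold and Cdkn1c 3.81-fold lower. The median of the 8 genes was -1.95, beside 0.01 for all genes. Phlda2, Grb10 and Ndn differed by less than 2-fold. The fibroblast markers had nearly the same mean level in both, while the dividing-cell markers had 7.37 in TTFs and 8.76 in MEFs, and the macrophage markers 8.11 and 9.71.

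GMTMM iCMs could be set beside the TTFs from which they were made, within 1 array series. No gene of the 8 was at least 2-fold higher on both GMTMM arrays, against 1.02% of all genes. Igf2 came closest, at 1.93-fold in FFV and 3.28-fold in FBS above TTFs. Cdkn1c lay below TTFs, by 3.23-fold in FFV and 1.84-fold in FBS. When the deposited table was used, 2 of the 8 genes passed.
Between MT iCMs in FFV and the GMT FFV arrays, 0 of the 8 genes were at least 2-fold apart in both pairs, against 4.66% of all genes. Over 8 genes this count is near that share. Igf2 was 1.68-fold and 2.5-fold lower in MT iCMs in the single pairs. By the same limit MT iCMs were lower than GMTMM iCMs in FFV for Dlk1 (6.43-fold) and Igf2 (3.41-fold), against 2.67% of all genes, and higher for Peg3 (2.22-fold), against 2.54%. MT iCMs were at least 2-fold lower than MEFs for Igf2 (22.5-fold), Dlk1 (15.9-fold), Cdkn1c (12.1-fold) and Mest (5.89-fold), against 4.49% of all genes. Dlk1 stood at 5.84 in MT iCMs, near the lowest level of 5.65, so its differences from GMTMM iCMs and MEFs are compressed. Of all genes 2-fold apart from MEFs, 51.6% were higher in MT iCMs, against 63.1% with median scaling.

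The comparison of media asked how the 8 genes differed between serum, serum-free and FFV culture. Beside 8.33 and 9.46 in FBS, Phlda2 had 5.94 and 6.11 in FFV and 6.07 and 6.25 in SF in GMT iCMs at 2 and 4 weeks. It lay 5.24-fold lower in FFV than in FBS at 2 weeks and 10.2-fold lower at 4 weeks in GMT iCMs, and 4.78-fold and 9.25-fold lower in SF. In the GMTMM pair FFV was 1.12-fold below FBS, both near the lowest level. Mest was 1.83-fold and 3.98-fold lower in FFV than in FBS in GMT iCMs at 2 and 4 weeks, and 2.98-fold and 4.57-fold lower in SF, but 2.37-fold higher in FFV in the GMTMM pair. The FBS arrays thus lay above all serum-free arrays for both genes in GMT iCMs. The share of all genes ordered this way was not counted. Ndn had 9.23 and 9.10 in FBS, 9.54 and 9.31 in FFV and 9.77 and 9.54 in SF in GMT iCMs, with the FBS values lowest at each time. It was 1.24-fold and 1.16-fold higher in FFV and 1.46-fold and 1.36-fold higher in SF than in FBS in GMT iCMs, and 2.42-fold higher in FFV in the GMTMM pair. Cdkn1c had 6.50 and 6.95 in FBS, 6.75 and 6.53 in SF and 7.16 and 7.40 in FFV in GMT iCMs. It was 1.58-fold and 1.36-fold higher in FFV than in FBS in GMT iCMs, and 1.75-fold lower in FFV in GMTMM iCMs.

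**Figure D3:**
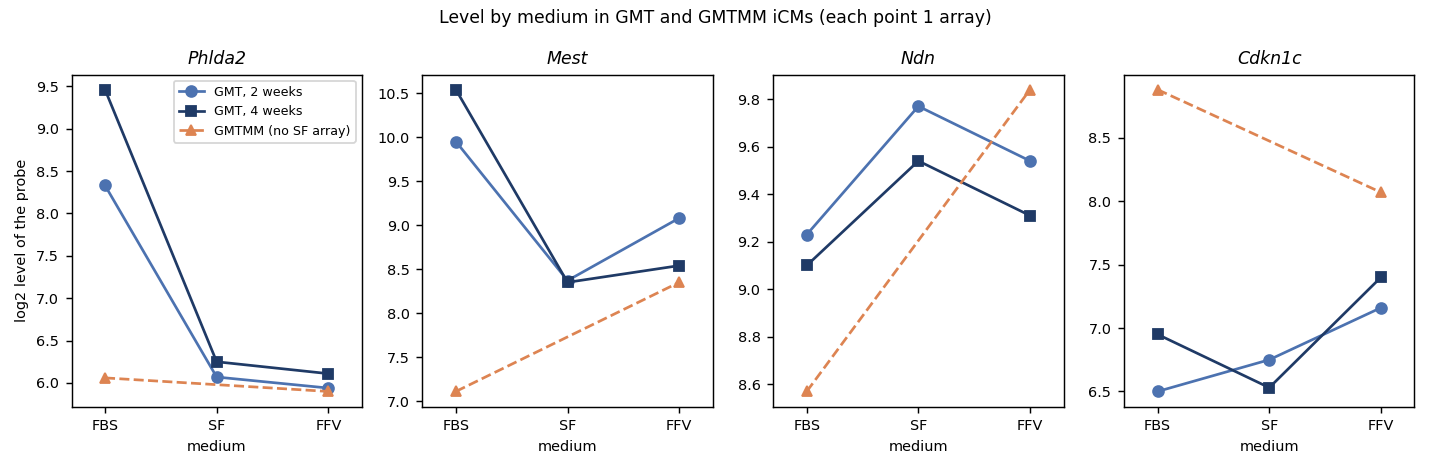
Log2 level (vertical axis, a separate scale for each gene) by medium (horizontal axis) in GMT iCMs at 2 and 4 weeks and in GMTMM iCMs, each point 1 array. Phlda2 and Mest drop from FBS to SF and FFV in GMT iCMs, whereas in GMTMM iCMs Mest is higher in FFV (8.35) than in FBS (7.11).

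Medium was tested with limma over 8 arrays, with context as a second term, where GMTMM iCMs and each time of the GMT iCMs are contexts, and p-values adjusted by Benjamini and Hochberg over all genes. Between FFV and FBS, 0 of the 8 genes passed an adjusted p of 0.05, against 0.0393% of all genes. At an unadjusted p under 0.05 there were 3, Phlda2, Dlk1 and Ndn, beside 1633 of all 15257 genes tested. The fitted log2 difference of Phlda2 was -1.97 ± 0.56 (SE, adjusted p = 0.346) and that of Mest was -0.54 ± 0.56 (adjusted p = 0.757). Between SF and FBS, again 0 of the 8 passed, against 0.0459% of all genes. An unadjusted p under 0.05 was found for 4 of them, beside 1985 of all 15256 genes tested. Phlda2 had -2.28 ± 0.66 (adjusted p = 0.272) and Mest -1.44 ± 0.66 (adjusted p = 0.423).

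The GMTMM pair enters this fit with differences of another size or sign, so the 6 GMT arrays were also fitted alone. This fit had 2 residual degrees of freedom, and limma added 4.27 prior ones from all genes to the spread of each gene. Phlda2 then fell by 2.87 ± 0.24 on the log2 scale in FFV (adjusted p = 0.00653) and by 2.73 ± 0.24 in SF (adjusted p = 0.00407). Mest fell by 1.43 ± 0.25 in FFV (adjusted p = 0.0358) and by 1.88 ± 0.25 in SF (adjusted p = 0.0109). These 2 of 8 genes in FFV stood beside 4.13% of all genes. In SF 4 of the 8 passed, beside 11% of all genes, since Ndn rose by 0.50 ± 0.11 (adjusted p = 0.0446) and Grb10 by 0.13 ± 0.03 (adjusted p = 0.0276). The Grb10 step is small and lies next to the lowest level on the arrays. Igf2, Dlk1, Peg3 and Cdkn1c did not pass in either medium, with Igf2 at 0.71 ± 0.42 in FFV and -0.74 ± 0.42 in SF.

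These calls did not hold under all settings. With the local surround subtracted none of the 8 genes passed in either medium (Phlda2 adjusted p = 0.174 in FFV and 0.112 in SF), and with the deposited table none passed either (0.102 and 0.0604), although the fitted difference of Phlda2 stayed between -5.06 and -2.14 under the 9 settings run. Without the mean-variance trend of the spread, no member passed in FFV (Phlda2 adjusted p = 0.0771), and Phlda2 (0.045) and Ndn (0.0391) passed in SF. The mean level of the macrophage markers in GMT iCMs was 6.58 and 7.64 in FBS against 6.14 to 6.2 in SF and FFV; in GMTMM iCMs they had 8.64 in FBS and 6.19 in FFV. In the GMT-alone fit 2 of 12 macrophage markers fell in SF and 0 passed in FFV, where all 12 were negative and 10 had an unadjusted p under 0.05. Of all 15048 genes tested 3368 had such a p in FFV. Of the cardiomyocyte markers 4 of 14 rose in FFV and 4 in SF, with a median of 0.47 in each. Of the others 6 of 9 dividing-cell and 5 of 12 fibroblast markers fell in SF. In FFV 0 dividing-cell markers passed, with 8 of 9 negative, 3 at an unadjusted p under 0.05 and a median of -0.22, and 1 fibroblast marker fell. The dividing-cell markers had mean levels of 7.56 and 7.74 in FBS, 7.47 and 7.28 in FFV and 7.16 and 6.96 in SF in GMT iCMs. In GMTMM iCMs they were higher in FFV (8.96) than in FBS (8.17), as Mest was. The part of these cell types in the differences of Phlda2 and Mest was not tested.

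Whether the FFV difference itself was unlike in GMTMM and GMT iCMs was tested with an interaction term. 4 of the 8 genes passed, against 9.59% of all genes. The signed log2 difference FFV minus FBS in GMTMM iCMs, less that in GMT iCMs, was 2.70 ± 0.41 for Phlda2 (adjusted p = 0.0137) and 2.68 ± 0.43 for Mest (adjusted p = 0.0175). It was 1.01 ± 0.20 for Ndn (adjusted p = 0.0303) and -1.36 ± 0.29 for Cdkn1c (adjusted p = 0.0373). In single pairs Phlda2 had -0.17 in GMTMM iCMs, against -2.39 and -3.35 in GMT iCMs. Mest had opposite signs in the GMT and GMTMM iCMs, as did Cdkn1c, whereas Phlda2 was near the lowest level in both media of the GMTMM pair (6.06 and 5.90). The residual scatter behind these values comes only from the GMT arrays at 2 and 4 weeks, with 2 residual degrees of freedom. In limma it was moderated by the trend over all genes, with 4.33 prior degrees of freedom. GMTMM iCMs differ from GMT iCMs in factor set and array series, and their labels give no sort or time. The starting cells of the GMT iCMs are not labelled either. With the local surround subtracted or with the deposited table none of the 4 passed, and without the mean-variance trend only Ndn did (adjusted p = 0.0428). With a floor on blank-subtracted signal only Phlda2 passed (0.0272), with Cdkn1c at 0.125, Mest at 0.0514 and Ndn at 0.0547, and with an offset of 16 Cdkn1c did not pass (0.0542).

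**Figure D4:**
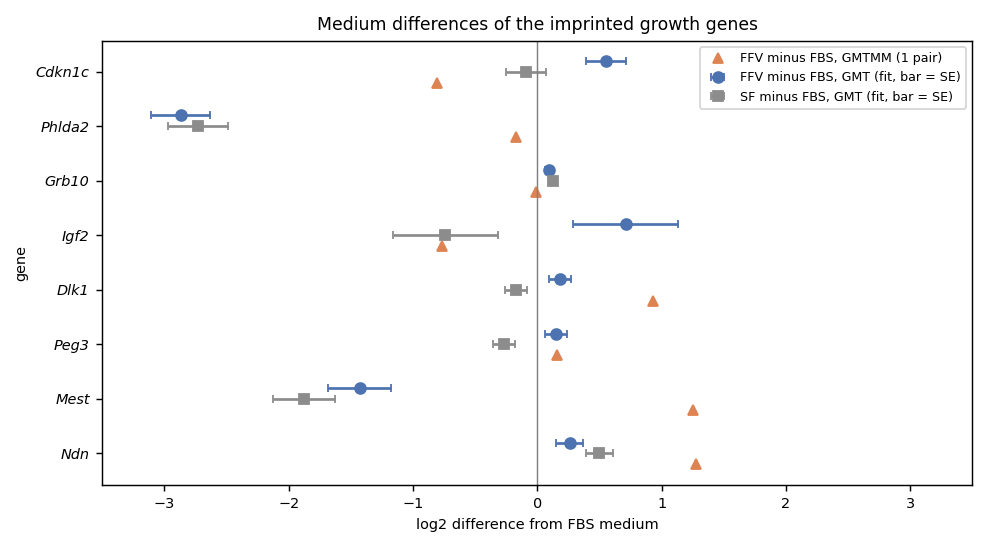
Log2 difference from FBS medium (horizontal axis) for each gene: fitted FFV and SF differences in the 6 GMT arrays alone with bars of 1 SE, and the FFV difference in the single GMTMM pair, which has no error. Phlda2 and Mest lie far to the left in GMT iCMs (-2.87 and -1.43 in FFV), and the GMTMM value of Mest lies on the other side of 0.

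FFV against SF asked what the 3 growth factors added without serum. 0 of the 8 genes passed, against 0% of all genes, with 768 genes at an unadjusted p under 0.05. Peg3 had the smallest p of the 8, at 0.42 ± 0.09 (unadjusted p = 0.00388 in limma, adjusted p = 0.871), with levels of 6.85 and 6.73 in FFV and 6.34 and 6.39 in SF at 2 and 4 weeks. Igf2 had 9.32 and 9.89 in FFV, 8.55 and 7.76 in SF and 8.28 and 9.50 in FBS, so that the FBS and FFV arrays overlapped. It was higher in FFV than in SF at both times, by 1.70-fold at 2 weeks and 4.37-fold at 4 weeks, with a fitted difference of 1.20 ± 0.54 (adjusted p = 0.871). Time in culture was tested over the 3 media in GMT iCMs, and 0 of the 8 genes passed, against 0% of all genes, with 1323 genes at an unadjusted p under 0.05. Phlda2 was 2.20-fold higher at 4 than at 2 weeks in FBS and 1.14-fold and 1.13-fold higher in SF and FFV, with a fitted difference of 0.50 ± 0.20 (adjusted p = 0.55). Igf2 was 2.33-fold higher at 4 weeks in FBS and 1.49-fold higher in FFV, but 1.73-fold lower in SF.

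Of 59 other imprinted genes 46 had a probe. H19, the maternally expressed RNA that shares its control region with Igf2, had levels of 13.88 in the E12 heart, 13.35 in MEFs, 11.99 in the P1 heart and 11.21 in TTFs, and 7.37 to 10.14 in GMT iCMs. The GMTMM iCMs had 12.50 in FBS and 12.95 in FFV. Within the GMT arrays H19 was lowest in SF at both times (8.22 and 7.37), and Igf2 was lowest on the same SF array at 4 weeks. At 2 weeks, by contrast, Igf2 was lowest in FBS (8.28, against 8.55 in SF). In the GMTMM pair H19 was higher in FFV than in FBS, and Igf2 was lower (10.34 against 11.10). Over the 13 arrays the correlation of Igf2 and H19 was 0.89 (Pearson) and 0.95 (Spearman), as a description of arrays that share sources and series. Plagl1 is a paternally expressed zinc finger factor known in mouse to act on other imprinted genes. It had 14.15 in the E12 heart, 12.39 in MEFs and 7.56 to 9.62 in GMT iCMs. Its Pearson correlation was 0.89 with Cdkn1c, 0.88 with Igf2, 0.77 with Grb10, 0.74 with Peg3 and 0.73 with Dlk1. With Mest it was 0.54, with Ndn -0.32 and with Phlda2 -0.35. In the GMTMM pair Plagl1 was higher in FFV than in FBS, whereas Igf2 and Cdkn1c were lower. Action of Plagl1 on these genes was not tested.

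**Figure D5:**
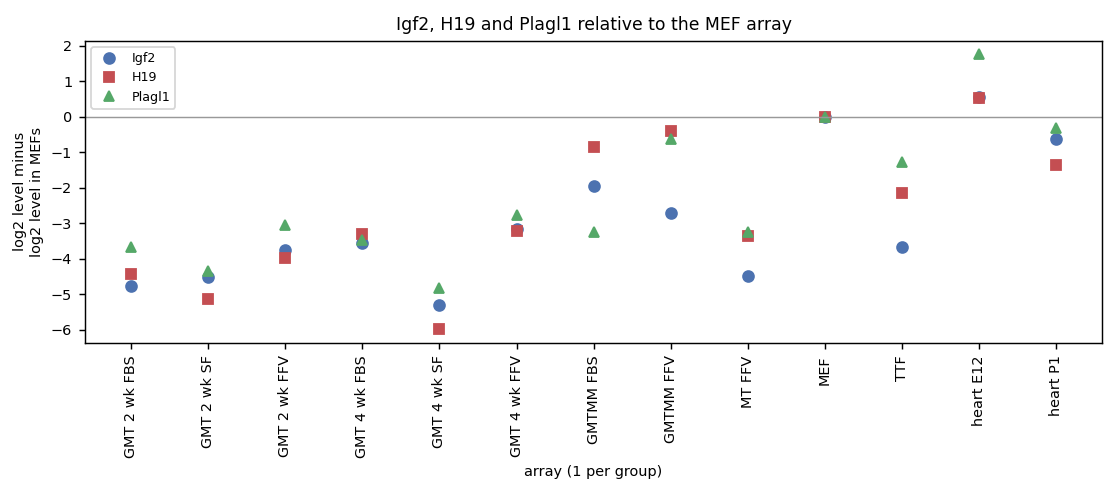
Log2 level of Igf2, H19 and Plagl1 on each of the 13 arrays minus the level of the same gene in MEFs (vertical axis), each point 1 array. All 3 genes lie below 0 on every GMT, GMTMM and MT array, lowest on the GMT SF array at 4 weeks.

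On each GMT array 4 of the 44 other imprinted genes tested were at least 2-fold below MEFs, against 2.92% of all genes. Another 2 were above by the same rule, against 1.96%. The median of the list was -0.01, beside -1.64 for the 8 genes. It includes genes near the lowest level on all arrays, such as Rtl1 (5.75 to 5.90) and Magel2 (5.69 to 5.79), whose differences are compressed. Besides H19 and Plagl1, the lower ones were Meg3, a maternally expressed long RNA of the Dlk1 region, and Dcn, a collagen-binding proteoglycan. Dcn is also among the 12 fibroblast markers, so it is counted in both lists. In the GMT arrays alone 2 of the 44 rose and 2 fell in FFV, beside 4.13% of all genes in either direction. Asb4, a subunit of ubiquitin ligases, fell by 1.36 ± 0.14 (adjusted p = 0.0102), and Slc38a4, an amino acid transporter, fell by 1.15 ± 0.09 (adjusted p = 0.00653). Their levels in GMT iCMs were 7.76 and 7.72 for Asb4 and 7.11 and 7.42 for Slc38a4 in FBS, against 5.92 to 6.58 over both genes in SF and FFV. Kcnq1, a potassium channel subunit of the Cdkn1c region, rose by 0.64 ± 0.06 (adjusted p = 0.0088), and Atp10a, a phospholipid transporter, by 0.61 ± 0.10 (adjusted p = 0.0322). In SF, beside 11% of all genes in either direction, Meg3 and Kcnq1 rose, and Asb4, Slc38a4, Dcn, Plagl1 and Gatm fell. Plagl1 fell by 1.02 ± 0.20 (adjusted p = 0.0292), and Gatm, an enzyme of creatine synthesis, fell by 1.69 ± 0.14 (adjusted p = 0.00361). Gatm also passed in the fit over 8 arrays, where it fell by 1.69 ± 0.14 (adjusted p = 0.0491). All calls from the GMT arrays alone, in these lists too, belong to a fit in which no gene passed with the local surround subtracted or with the deposited table. In the interaction test 6 of the 44 passed, beside 9.59% of all genes, each with a positive signed difference (GMTMM minus GMT), among them Plagl1 at 1.97 ± 0.35 (adjusted p = 0.0211). Plagl1 had 11.78 in FFV and 9.13 in FBS in GMTMM iCMs.

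Cdkn1c and Phlda2 lie near each other on chromosome 7 with 2 annotated genes between them, yet Phlda2 was high on the GMT FBS arrays and Cdkn1c was not. Slc22a18, an organic cation transporter relative between them, ran from 6.22 to 6.59 in GMT iCMs, and Nap1l4, a histone chaperone of the same region, from 10.44 to 10.84. Neither gene passed against FBS in the fit over 8 arrays or in the GMT arrays alone. Of the IGF and insulin signalling list, 15 of 16 genes were tested. In either 8-array comparison with FBS 0 passed, against 0.0393% of all genes in FFV and 0.0459% in SF. Igf1, the related growth factor, was lower than in MEFs (9.73) on each GMT array, at 6.40 to 7.09. The IGF1 receptor gene Igf1r ran from 9.31 to 10.02 in GMT iCMs and Igf2r, the maternally expressed receptor that clears Igf2, from 9.36 to 9.55, against 12.68 in the E12 heart. In the GMT arrays alone Pik3r1, the regulatory subunit of PI3 kinase, rose by 0.57 ± 0.09 in FFV (adjusted p = 0.0311). It was the 1 gene of these 15 to pass there, beside 4.13% of all genes.

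Of 25 relatives and partners 24 were tested. In the 8-array comparisons with FBS 0 passed, against 0.0393% of all genes in FFV and 0.0459% in SF. In the GMT arrays alone 5 fell and 0 rose in SF, beside 11% of all genes in either direction, among them Ccne1, the cyclin partner of the kinase that Cdkn1c inhibits, by 0.59 ± 0.08 (adjusted p = 0.0107), and Maged2, a relative of Ndn, by 1.15 ± 0.16 (adjusted p = 0.0121). The other kinase inhibitors of the same family had smaller differences from MEFs than Cdkn1c. Cdkn1a ran from 11.08 to 11.83 in GMT iCMs against 10.13 in MEFs, and Cdkn1b from 6.75 to 7.18 against 7.82.

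The genes most like each member over the 13 arrays, among named genes that varied by at least 2-fold, were found by Pearson correlation of level. Crlf3 (0.973) and Wdr20 (0.966) were most like Cdkn1c, Svbp (0.946) and Evl (0.944) like Igf2, and Lrrc17 (0.949) and Fbn1 (0.939) like Dlk1. Mecom (0.955) and Npr3 (0.941) were most like Peg3, and Rbm8a (0.948) and Hnrnpdl (0.946) like Mest. Mcpt4 (0.972) and Aox3 (0.972) were most like Phlda2, Smc4 (0.928) and Ube2c (0.923) like Grb10, and Pias3 (0.918) and Rspo3 (0.873) like Ndn. Among the 8 genes the closest pair was Cdkn1c with Igf2, at 0.87. The points of these correlations are arrays of related cells, so they describe these 13 arrays only.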

How the data were processed

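RNA was amplified as amino allyl aRNA and hybridised to single-colour Cy5 arrays, per the labels' protocols. The deposited scanner output holds intensity at 635 nm for 27456 spots, 2736 of them blank. The authors' deposited table of processed values has no stated unit or scale: its columns follow the spot median linearly and have a median of 25, and this signal served only as an alternative. Probe positions were not used here.

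From the scanner output, spot medians were corrected by normexp (offset 50, no local surround), quantile normalised over 23473 probes and put on the log2 scale with limma 3.58.1 in R 4.3.3. GEO's annotation of the array named 16631 probes; the brightest probe stood for each gene. Genes well above background on at least 2 arrays of a fit were tested with lmFit and eBayes (trend, two-sided), with Benjamini-Hochberg adjustment and a threshold of 0.05. The spread is that between contexts or times, moderated in limma over all genes, and not that between replicate cultures. The number of arrays limits the precision. Source comparisons had no test: a gene counted when at least 2-fold apart in every pair of arrays and well above background on the higher one. The fits were tested on simulated data. The members and lists were chosen with earlier results of these data known; all 8 members are named, list genes by size of difference or by passing, and the 2 most alike genes per member. Asb4, Slc38a4, Kcnq1, Slc22a18, Nap1l4, Igf1r, Igf2r, Cdkn1a and Cdkn1b were named partly after their values were seen. Alternatives were scaling by the median, a lower offset (16), flooring of blank-subtracted signal, subtraction of the local surround, the deposited table, the mean of probes, no filter, no trend and leaving out contexts; repeating them on the 6 GMT arrays alone was chosen after seeing the data.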

Additional observations from a re-analysis of the deposited data

Results flagged for a closer look

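The FFV difference from FBS was unlike in GMTMM and GMT iCMs for 4 of the 8 genes, by the interaction term in limma, beside 9.59% of all genes. These calls did not hold under all settings: 0 of the 4 passed with the local surround subtracted or with the deposited table, 1 with a floor on blank-subtracted signal and 1 without the mean-variance trend. The signed difference, GMTMM minus GMT on the log2 scale, was 2.70 for Phlda2, 2.68 for Mest, 1.01 for Ndn and -1.36 for Cdkn1c. For Mest the single pairs had 1.25 in GMTMM iCMs and -0.87 and -1.99 in GMT iCMs at 2 and 4 weeks. For Cdkn1c they had -0.81 in GMTMM iCMs and 0.66 and 0.45 in GMT iCMs. The GMTMM iCMs are 1 array per medium and differ from the GMT iCMs in factor set and array series. Their labels give no sort or time, and the starting cells of the GMT iCMs are not labelled. The parts of all these in the difference cannot be told apart.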

How the results depend on the processing

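No paired analysis by replicate number was possible because each group has 1 array and the labels number no replicates; context was already a term in the medium fits. Without a test, 389 of the member values moved by less than the residual SD of the gene over the 6 GMT arrays and 227 moved by more, with 0 called values reversed. With a test, 479 values kept direction and side of the threshold, 31 lost and 9 gained the call, and 25 reversed. The cause was not tested for any of them. Dim signal next to the lowest level limits Grb10, Dlk1 in GMT and MT iCMs and Phlda2 outside GMT FBS. Interaction fits without a context were not run, having no residual degrees of freedom.

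Genes passing in FFV against FBS numbered 6, but 11 with an offset of 16, 17 with a floor, 0 with the local surround subtracted, 0 with the deposited table and 0 without a trend, and 0 to 622 when a context was left out. In SF against FBS they numbered 7, and 21, 42, 0, 2 and 0 under those settings, and 0 to 1655 when a context was left out. Over time they numbered 0, and 0 to 7 when a medium was left out. The interaction had 1463, but 343 with a floor, 135 with the surround subtracted, 181 with the deposited table and 371 without a trend. In the GMT arrays alone, repeated after seeing the data, FFV had 622, but 0 with the surround subtracted, 0 with the deposited table and 1 without a trend. SF had 1655, but 2848 with median scaling, 0 after surround subtraction, 0 from the table, and 643 without a trend.

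Genes at least 2-fold apart numbered 761 for GMT iCMs against MEFs, but 1858 with a floor, 506 with the surround subtracted and 1733 with the table. Against the E12 heart 1073 became 2455, 551 and 2271. Against the P1 heart 1098 became 2524 with a floor and 2474 with the table. With a floor and with the table, the E12 heart against MEFs had 4508 and 4119 in place of 1877, and the P1 heart against MEFs 4424 and 4181 in place of 1988. With an offset of 16, a floor and the table, P1 against E12 had 2104, 3632 and 3117 in place of 1378, and GMTMM iCMs against TTFs 475, 1045 and 1017 in place of 291. Under the same settings MT iCMs had 1148, 2926 and 2595 in place of 717 against GMT iCMs, 1200, 2412 and 2303 in place of 779 against GMTMM iCMs, and 2229, 4489 and 4246 in place of 1418 against MEFs. TTFs against MEFs had 830, and 1443, 3381 and 3357, with 1410 after surround subtraction.

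Of the 8 genes, those 2-fold apart between GMT iCMs and the P1 heart numbered 3, but 5 with an offset of 16, 6 with a floor, 1 with the surround subtracted and 6 with the table. For the E12 heart against MEFs 3 became 5 with a floor, 5 with the surround subtracted and 5 with the table. For the P1 heart against MEFs 2 became 4 with the surround subtracted, and against the E12 heart 4 became 7 with a floor. For GMTMM iCMs against TTFs 0 became 1 after scaling by the median, 1 with a floor and 2 with the table, and for MT against GMT iCMs 1 with a floor and 2 with the table.

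Some signs turned. Leaving out 1 context moved the FFV difference of Cdkn1c between -0.18 and 0.55, of Igf2 between -0.19 and 0.71 and of Mest between -1.43 and 0.19. It moved Dlk1 in SF between -0.17 and 0.03, with 0.02 after median scaling and 0.09 after surround subtraction. Between FFV and SF Phlda2 ran from -0.14 to 0.65 and Ndn from -0.23 to 0.04, with 0.23 after surround subtraction. Over time, leaving out 1 medium, Igf2 ran from -0.11 to 0.90, Dlk1 from -0.01 to 0.20, Peg3 from -0.03 to 0.11 and Mest from -0.28 to 0.28. With the surround subtracted Igf2 had -0.04 over time, Peg3 -0.10 and Grb10 0.02 in the interaction, Dlk1 -0.01 in FFV and Igf2 0.13 in SF in the GMT arrays alone. Mest over time had -0.02 after scaling by the median, 0.00 with an offset of 16 and -0.01 with a floor, and Grb10 had 0.00 with the table.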
